A study of Gallus gallus with 4 samples.

Results

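Immediate early transcription factors were described in granulosa cells of the hen ovary. The members were 10 named genes, namely JUN, JUND, FOS, FOSL2, ATF3, EGR1, EGR2, KLF4, IER2 and MYC, taken by gene name from the expression tables. Rows with these names were found for 7 of the 10, out of 19309 genes with values, and JUND, EGR2 and IER2 were not analysed here. RNA came from hens (Gallus gallus) aged 10 to 15 months, and poly-A transcripts were sequenced. There were 4 groups with 1 library each: proximal granulosa cells of the F1 follicle, distal granulosa cells of the F1 follicle, and proximal and distal granulosa cells of the F5 follicle. All 4 are described by the labels as natural cells, with no treatment named. Proximal and distal refer to the germinal disc, the patch of egg cytoplasm that holds the oocyte nucleus, and F1 is the follicle nearest to ovulation. The labels give neither the number of hens or follicles behind a library nor whether they were pooled.

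Immediate early genes are transcribed within minutes of a signal such as a hormone, a growth factor or stress, without new protein synthesis. The AP-1 factors bind DNA as pairs of leucine zipper proteins, in which a JUN protein joins a FOS protein, another JUN protein or an ATF protein. EGR1 is a zinc finger factor induced through MAP kinases and the serum response factor, and in mammalian granulosa cells it is known to respond to luteinizing hormone. Because such genes also respond to handling of tissue, stress genes of the same libraries are given beside the results.

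Levels are FPKM, fragments scaled to gene length and library total, as deposited. The whole reads behind FPKM could be recovered, and the library totals were 18020270 reads for F1 proximal, 13948790 for F1 distal, 16654793 for F5 proximal and 17351242 for F5 distal cells. Intervals below are 95% exact intervals from these reads (Clopper-Pearson for a ratio, Poisson for a level). Counting error is all they cover, so variation among hens or follicles is left out. In bulk RNA, fewer cells that express a gene and less RNA per cell cannot be told apart. The granulosa markers FOXL2, FSHR, INHA, NR5A1 and ZP3 were present in every library, while ZP1 stayed between 0 and 0.0383 FPKM. ZP3, which granulosa cells of birds make for the egg coat, held 11.4% of reads (proximal) and 15.4% (distal) in F1, against 1.98% (proximal) and 2.04% (distal) in F5.

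JUN (ENSGALG00000010870, chromosome 8, 25267213 to 25268157, minus strand), the central partner of AP-1 pairs, was by far the most abundant member. Its fitted difference between follicles was the largest on the log2(FPKM + 1) scale, while EGR1 had slightly larger ratios of FPKM. JUN stood at 257 FPKM in F1 proximal, 185 FPKM in F1 distal, 40.9 FPKM in F5 proximal and 24.9 FPKM in F5 distal cells, on 4377, 2440, 643 and 409 reads. Both F1 libraries lay far above both F5 libraries, and within each follicle the proximal library was the higher. Among the 11203 genes tested, which average 1 FPKM or more, JUN ranked 255 and 366 in F1 proximal and distal cells, and 2077 and 3263 in F5 proximal and distal cells. Coordinates are as the authors' files give them, and their genome build was not named in the labels or headers used here.

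JUN was 6.29-fold higher in F1 than in F5 proximal cells (95% interval 5.79 to 6.84). In distal cells it was 7.42-fold higher in F1 than in F5 (6.68 to 8.26). In the additive limma fit over the 4 libraries, with follicle and position as terms, JUN rose in F1 by 2.73 on the log2(FPKM + 1) scale (SE 0.105, adjusted p = 0.00544). This fit has 1 residual degree of freedom, which is the difference of the position effect between the follicles, with variances moderated across genes. Its p-values are thus set against that departure from additivity and not against repeat libraries, which the groups lack. Nothing in the labels says that separate animals stand behind the libraries. On simulated data the fit made more false calls than its threshold allows, so adjusted p-values and calls below may be too generous.

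EGR1 (ENSGALG00000007669, chromosome 13, 17704810 to 17707611, plus strand) followed the same order at a lower level. It stood at 6.53 FPKM in F1 proximal, 3.50 FPKM in F1 distal, 0.992 FPKM in F5 proximal and 0.441 FPKM in F5 distal cells, on 292, 121, 41 and 19 reads. Every F1 value was above every F5 value. EGR1 was 6.58-fold higher in F1 than in F5 proximal cells (4.74 to 9.37) and 7.92-fold higher in F1 than in F5 distal cells (4.86 to 13.6).

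In the same limma fit EGR1 rose in F1 by 1.78 on the log2(FPKM + 1) scale (SE 0.169, adjusted p = 0.0119). That scale understates the change of so low a gene. EGR1 passed the filter of 1 FPKM on the strength of its F1 libraries, and with no filter its limma adjusted p was 0.0294. Leaving out the F5 distal library, with position no longer a term, gave a limma difference of 1.55 (adjusted p = 0.0885), so the call was lost there.

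**Figure D1:**
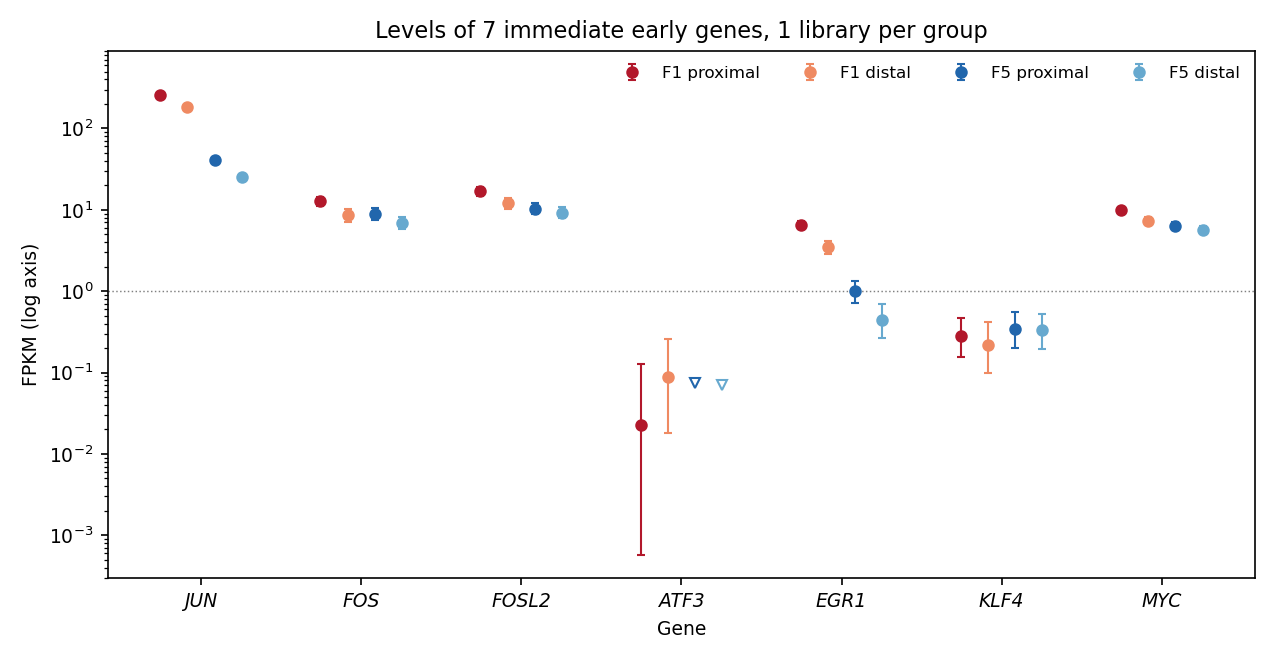
FPKM of the 7 members found (log axis) in F1 proximal, F1 distal, F5 proximal and F5 distal cells, 1 library each. Points are single libraries and bars are 95% exact Poisson intervals from the reads; open triangles are placed at the level that 3 reads would give and mark libraries with 0 reads, and the dotted line is 1 FPKM. JUN and EGR1 are higher in both F1 libraries than in both F5 libraries, whereas FOS, FOSL2 and MYC lie between 5.72 and 16.8 FPKM in every library.

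The FOS-type partners of JUN did not pass the test between follicles. FOS (ENSGALG00000028037, chromosome 5, 37501649 to 37502995, plus strand), the best known partner, stood at 12.8 FPKM in F1 proximal, 8.52 FPKM in F1 distal, 8.92 FPKM in F5 proximal and 6.90 FPKM in F5 distal cells, on 248, 128, 160 and 129 reads. F1 distal and F5 proximal cells could not be separated by counting error (1.05-fold higher in F5 proximal, 0.825 to 1.33). Under the median-ratio scaling described below their order turned, with 10.7 in F1 distal and 7.43 in F5 proximal cells. FOS was 1.43-fold higher in F1 than in F5 proximal cells (1.17 to 1.76) and 1.23-fold higher in F1 than in F5 distal cells (0.959 to 1.59). The fitted difference of F1 over F5 was 0.37 on the log2(FPKM + 1) scale (SE 0.134, limma adjusted p = 0.0867).

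FOSL2 (ENSGALG00000010036, chromosome 3, 26737453 to 26743407, minus strand), also called FRA2, is a FOS relative that lasts longer after stimulation. It stood at 16.8 FPKM in F1 proximal, 11.99 FPKM in F1 distal, 10.3 FPKM in F5 proximal and 9.26 FPKM in F5 distal cells, on 276, 152, 156 and 146 reads. The F1 libraries were the higher ones. In FPKM as deposited, F1 distal and F5 proximal cells could not be separated by counting error (1.16-fold, 0.924 to 1.46). Under the median-ratio scaling described below they lay further apart, at 15.0 in F1 distal and 8.58 in F5 proximal cells. FOSL2 was 1.64-fold higher in F1 than in F5 proximal cells (1.34 to 2.003) and 1.30-fold higher in F1 than in F5 distal cells (1.03 to 1.64). The fitted difference of F1 over F5 was 0.50 on the log2(FPKM + 1) scale (SE 0.142, limma adjusted p = 0.0527).

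MYC (ENSGALG00000016308, chromosome 2, 139316928 to 139321894, plus strand) is a growth-promoting factor of the helix-loop-helix leucine zipper class. It stood at 9.88 FPKM in F1 proximal, 7.27 FPKM in F1 distal, 6.31 FPKM in F5 proximal and 5.72 FPKM in F5 distal cells, on 567, 323, 335 and 316 reads. It was highest in F1 proximal cells. In FPKM as deposited, F1 distal and F5 proximal cells could not be separated by counting error (1.15-fold, 0.985 to 1.35). Under the median-ratio scaling described below they lay further apart, at 9.10 in F1 distal and 5.26 in F5 proximal cells. MYC was 1.56-fold higher in F1 than in F5 proximal cells (1.36 to 1.80) and 1.27-fold higher in F1 than in F5 distal cells (1.09 to 1.49). The fitted difference of F1 over F5 was 0.44 on the log2(FPKM + 1) scale (SE 0.146, limma adjusted p = 0.0746).

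Some members were barely or not detected. KLF4 (ENSGALG00000026928, chromosome Z, 55526380 to 55531189, minus strand), a zinc finger factor of differentiation, stood at 0.280 FPKM in F1 proximal, 0.217 FPKM in F1 distal, 0.343 FPKM in F5 proximal and 0.330 FPKM in F5 distal cells, on 15, 9, 17 and 17 reads. Its interval reached across 1 in all 4 pairs of libraries, so no difference was detectable at this depth. ATF3 (ENSGALG00000025887, chromosome 3, 21184776 to 21188556, minus strand), a stress-induced partner in AP-1 pairs, had 1 read in F1 proximal, 3 in F1 distal and 0 in both F5 libraries. A count of 0 allows up to 0.0742 FPKM in F5 proximal and 0.0712 FPKM in F5 distal cells, taken as 3 reads per library. KLF4 and ATF3 were below the filter and did not enter the main fit, so 5 of the 7 were tested there. With no filter neither was called. The limma adjusted p between follicles was then 0.363 for KLF4 and 0.348 for ATF3, and between positions 0.786 and 0.712.

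Where pairs of libraries were described by size alone, past 2-fold on log2(FPKM + 1), JUN and EGR1 were higher in F1 in both comparisons of follicles, and no member was 2-fold lower. That is 2 of the 7 found, both among the 5 tested, in proximal cells. There 4.46% of all tested genes were that much higher in F1 and 9.85% that much lower. In distal cells it is again 2 of 7, beside 5.36% higher and 17.8% lower of all tested genes. In the limma fit 2 of the 5 tested members rose and 0 fell, beside 10.4% of all tested genes that rose and 35.8% that fell. EGR1, at 0.992 and 0.441 FPKM in F5, passed the filter of 1 FPKM on the strength of its F1 libraries. Its place in these counts is therefore not independent of its F1 level.

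The other 3 depend on how libraries are scaled. The median log2 difference of F1 over F5 across all tested genes was -0.27 in proximal and -0.40 in distal cells, and median-ratio scaling brings these medians to 0.00. Under that scaling the limma fit called 2169 genes higher and 1896 lower in F1, in place of 1168 and 4010. All 5 tested members were then called higher, among them FOS (0.72, adjusted p = 0.0163), FOSL2 (0.86, adjusted p = 0.0123) and MYC (0.78, adjusted p = 0.0163). The JUN difference came to 3.12 and the EGR1 difference to 2.01 on that scale.

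**Figure D2:**
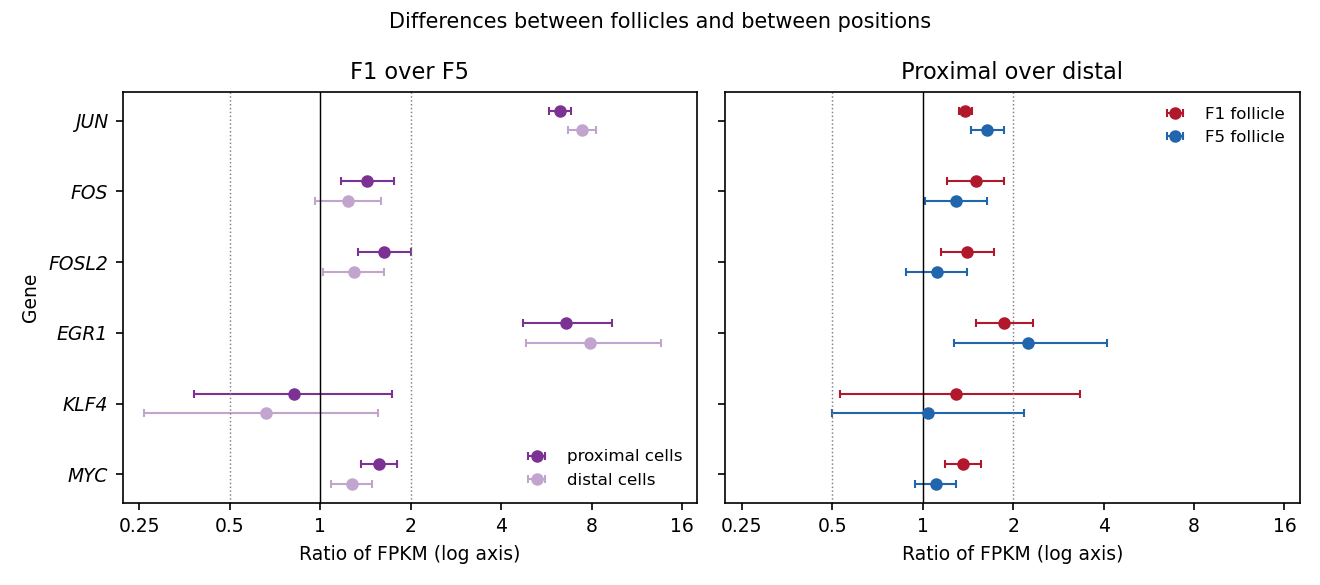
Ratios of FPKM (log axis) for 6 members, F1 over F5 on the left and proximal over distal on the right, with 95% exact counting intervals. ATF3 is left out because it had at most 3 reads in a library; dotted lines mark 2-fold. JUN and EGR1 lie between 6.29 and 7.92 for F1 over F5, and every proximal over distal ratio lies between 1.04 and 2.25.

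Between positions the members differed by smaller ratios. JUN was 1.39-fold higher in proximal than in distal cells of F1 (1.32 to 1.46) and 1.64-fold higher in F5 (1.44 to 1.86). EGR1 had the largest position ratios, 1.87-fold higher in proximal cells of F1 (1.51 to 2.33) and 2.25-fold higher in F5 (1.28 to 4.10). FOS was 1.4997-fold higher in proximal cells of F1 (1.21 to 1.87) and 1.29-fold higher in F5 (1.02 to 1.64). For these 3 genes the proximal library exceeded the distal one beyond counting error in both follicles, in FPKM as deposited. Across all tested genes the median log2 difference of proximal over distal was 0.20 in F1 and 0.07 in F5. Under median-ratio scaling the FOS ratios came to 1.24 in F1 and 1.19 in F5. An interval moves by the same factor as its ratio, so both FOS intervals then reach across 1. Those of JUN and EGR1 stay above 1 in both follicles.

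For FOSL2 and MYC the proximal library exceeded the distal one beyond counting error in F1 only, again in FPKM as deposited. FOSL2 was 1.41-fold higher in proximal cells of F1 (1.15 to 1.72), with a ratio of 1.11 in F5 (0.883 to 1.40). MYC was 1.36-fold higher in proximal cells of F1 (1.18 to 1.56), with a ratio of 1.10 in F5 (0.944 to 1.29). Under median-ratio scaling the F1 ratios came to 1.16 for FOSL2 and 1.12 for MYC. Their F1 intervals, moved by the same factor, then reach across 1 as well. Whether the position ratio differs between the follicles could not be tested, because that difference takes the only residual degree of freedom.

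In all, 6 of the 7 found members were higher in proximal cells of both follicles, whatever the size, and ATF3 had too few reads for a direction. The 5 tested members were among the 6, beside 53.5% of all tested genes, though FOSL2 and MYC had F5 intervals across 1. The other was KLF4, below the filter, with 9 to 17 reads per library and intervals across 1 in both follicles. After median-ratio scaling the position ratios shrank, to 1.15 in F1 and 1.51 in F5 for JUN and to 1.12 and 1.02 for MYC, and KLF4 turned to 0.960 in F5. The 5 tested members kept a ratio above 1 in both follicles, but in F5 it was only 1.03 for FOSL2 and 1.02 for MYC. A ratio above 1 in both follicles, whatever the size, held for 17.9% of all tested genes under that scaling. The F5 intervals of FOSL2 and MYC reach across 1 under it too, so ratios so close to 1 do not establish a direction.

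No member differed 2-fold by position on the log2(FPKM + 1) scale. Of all tested genes, 5.18% passed 2-fold upward and 0.303% downward in proximal cells of F1, and 2.18% upward and 0.321% downward in F5. In the limma fit of position 0 of the 5 tested members passed, beside 0.0% of all tested genes. The smallest adjusted p of any gene was 0.0832, 1535 genes had an unadjusted p under 0.05, and a voom-weighted limma fit of recovered reads called 0. JUN had a fitted difference of 0.58 (SE 0.105, limma unadjusted p = 0.00542, adjusted p = 0.226). EGR1 and FOS were also among the 3 members with an unadjusted limma p under 0.05, at 0.0238 and 0.0329, with adjusted values of 0.330 and 0.336.

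The authors' deposited table holds their own log2 fold changes of proximal over distal cells. For F1 it gives 0.24 for JUN, 0.35 for FOS, 0.25 for FOSL2, 0.66 for EGR1 and 0.21 for MYC. For F5 the authors' deposited table gives 0.62 for JUN, 0.28 for FOS, 0.06 for FOSL2, 1.08 for EGR1 and 0.05 for MYC. Each lies below the log2 ratio of FPKM by one amount per follicle, 0.24 in F1 and 0.09 in F5, an offset shared by these genes to 2 decimals. For KLF4 in F5 that amount turns the sign, to -0.03 in the authors' deposited table.

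FPKM is per length, so levels of AP-1 partners are set beside each other here as far as the lengths behind FPKM are right. These were 945 bases for JUN, 1077 for FOS and 909 for FOSL2, and they were not checked against full transcripts. An error in them would shift the shares and ratios between genes. Summed over JUN, FOS and FOSL2, the level was 286.7 FPKM in F1 proximal, 205.6 FPKM in F1 distal, 60.1 FPKM in F5 proximal and 41.1 FPKM in F5 distal cells. JUN made up 89.7% and 90.0% of that sum in F1 proximal and distal cells, and 68.0% and 60.7% in F5 proximal and distal cells. JUN stood at 8.67 and 9.03 times the level of FOS plus FOSL2 in F1, and at 2.13 and 1.54 times in F5, proximal before distal. The ratio of FOS to FOSL2 varied little, from 0.711 to 0.866 over the 4 libraries. JUND and the other FOS and JUN genes are not in these sums, so the shares describe the 3 genes only.

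**Figure D3:**
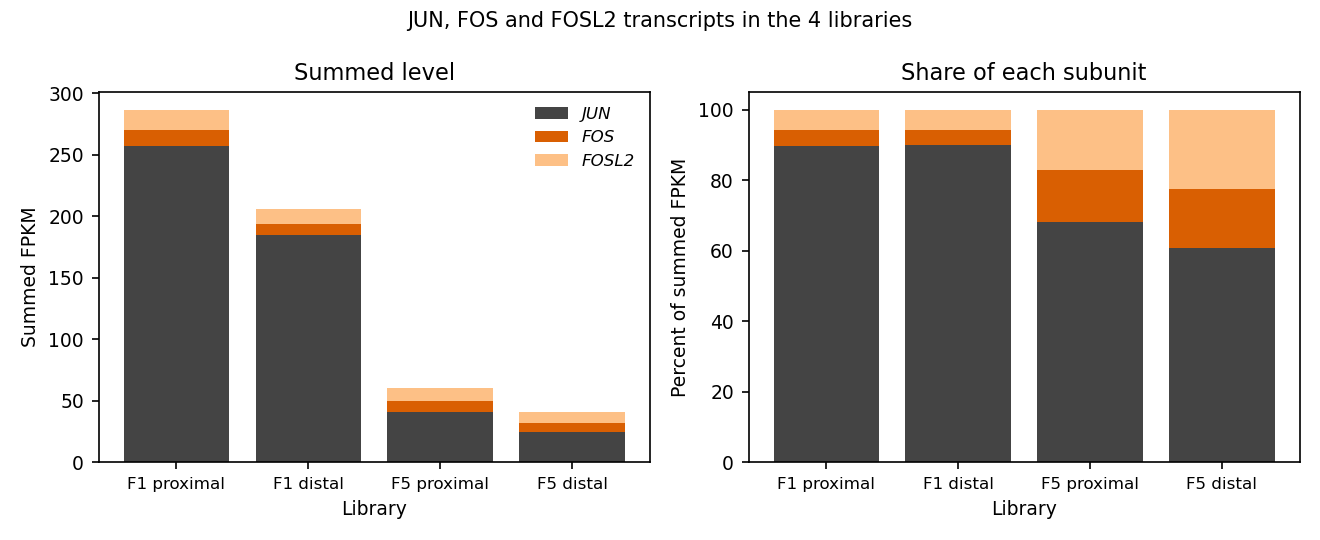
Summed FPKM of JUN, FOS and FOSL2 (left) and the share of each in that sum in percent (right) in F1 proximal, F1 distal, F5 proximal and F5 distal cells, 1 library each, with no error bars. The F1 bars reach 286.7 and 205.6 FPKM and are about 90% JUN; the F5 bars reach 60.1 and 41.1 FPKM and are 68.0% and 60.7% JUN.

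Among the tested members FOS, FOSL2 and MYC had similar profiles, apart from those of JUN and EGR1. The distance between profiles was Euclidean over the 4 libraries, on log2(FPKM + 1) values centred on each gene's mean. FOSL2 and MYC lay 0.0787 apart, FOS and MYC 0.186 and FOS and FOSL2 0.192. JUN and EGR1 lay 0.985 apart, and each was at least 1.32 from FOS, FOSL2 and MYC. The added 1 FPKM shrinks the differences of a gene as low as EGR1, and so affects its distances. Over the 6434 usable gene names averaging 5 FPKM or more, genes near to JUN were ENTPD2 and BLVRA, at 0.215 and 0.307. Those nearest to EGR1 were GSTT1, ZNRF2 and HTR1B, the last at 0.311. Those nearest to FOS were ST6GALNAC6, UBE2E1 and ATP6V0E2, at 0.0937, 0.121 and 0.142, and those nearest to MYC were SLC40A1, BIN1 and C5H14ORF169, at 0.0723, 0.0724 and 0.0786.

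The counts of related genes are to be read against all tested genes, of which 10.4% rose and 35.8% fell in F1. Counts under median-ratio scaling are to be read against the calls under it, 2169 higher and 1896 lower of the 11203 genes. Of 31 listed AP-1, ATF, MAF and related genes, 20 could be used by name and 17 were tested, of which 1 rose and 6 fell in F1 and 10 did not pass, with a median fitted difference of -0.35. The share that fell is close to that of all tested genes. JDP2, a repressor that pairs with JUN, stood at 60.6 FPKM (proximal) and 39.0 FPKM (distal) in F1, against 139 FPKM (proximal) and 145 FPKM (distal) in F5. It fell in F1 by 1.53 on the log2(FPKM + 1) scale (SE 0.192, limma adjusted p = 0.0143). CEBPB, a leucine zipper factor of ovulation in mammals, fell by 1.54 (SE 0.119, limma adjusted p = 0.0105). ATF4 fell by 0.56, CREB1 fell by 0.51 and CREB3 fell by 0.43 (limma adjusted p 0.0272 to 0.0419), and these were not called under median-ratio scaling, which gave 5 higher and 2 lower for this list.

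Other EGR, KLF and NR4A genes numbered 11 tested of 20 listed, of which 1 rose and 3 fell, with a median of -0.02, shares no higher than those of all tested genes (10.4% and 35.8%). KLF3, a repressor, fell by 1.41 (SE 0.194, limma adjusted p = 0.0151). NAB1, a corepressor that binds EGR proteins, fell by 0.49 (SE 0.115, limma adjusted p = 0.0362). It was not called under median-ratio scaling, which gave 3 higher and 1 lower for this list, beside 2169 and 1896 of the 11203 genes.

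The signalling input to these genes was also counted. Of 33 listed genes of the serum response and MAP kinase route, 20 were tested, of which 1 rose and 5 fell, with a median of -0.24, again shares below those of all tested genes (10.4% and 35.8%). SRF, the serum response factor itself, stood at 16.9 FPKM (proximal) and 15.2 FPKM (distal) in F1, against 17.5 FPKM (proximal) and 15.1 FPKM (distal) in F5, and was chosen here after its values were seen. RPS6KA3, the kinase RSK2, fell by 1.52 (SE 0.133, limma adjusted p = 0.0109), and ELK3, a partner of SRF, fell by 1.16 (SE 0.152, limma adjusted p = 0.0147). Median-ratio scaling gave 3 higher and 3 lower for this list, beside 2169 higher and 1896 lower of the 11203 genes.

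Feedback inhibitors, which immediate early signalling induces to shut itself off, were counted in the same way. Of 26 listed, 14 were tested, of which 0 rose, 8 fell and 6 did not pass, beside 35.8% of all tested genes that fell. The list median was -1.06 on the log2(FPKM + 1) scale. Median-ratio scaling gave the same counts, beside 2169 higher and 1896 lower of the 11203 genes. The list median was then -0.74, with 12 of the 14 below 0. TRIB1, a pseudokinase, stood at 10.6 FPKM (proximal) and 4.18 FPKM (distal) in F1, against 41.7 FPKM (proximal) and 44.9 FPKM (distal) in F5, and fell by 2.51 (SE 0.338, limma adjusted p = 0.0150). Its relative TRIB2 fell by 2.15 (SE 0.304, limma adjusted p = 0.0156). The MAP kinase phosphatases DUSP10, DUSP16 and DUSP7 fell by 1.13 to 1.33 (limma adjusted p 0.0131 to 0.0166). With the F5 distal library left out and no position term, 1 of the 14 was called, and with F5 proximal left out 2. The calls over all genes then came to 666 and 971, and those of the other AP-1 list to 0 higher and 2 lower in each case, and those of the EGR and KLF list to 0.

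Further immediate early genes went both ways. Of 36 listed, 22 were tested, of which 7 rose and 5 fell in F1 and 10 did not pass. Beside these, 10.4% of all tested genes rose and 35.8% fell. The list median was -0.14, and it turned to 0.21 under median-ratio scaling. That scaling gave 9 higher and 4 lower for this list, beside 2169 higher and 1896 lower of the 11203 genes. With either F5 library left out fewer genes of this list were called, as over all tested genes. CTGF, a matrix-associated growth factor also known as CCN2, stood at 214 FPKM (proximal) and 211 FPKM (distal) in F1, against 41.5 FPKM (proximal) and 49.3 FPKM (distal) in F5, and rose by 2.21 (SE 0.110, limma adjusted p = 0.00796). Its relative CYR61 rose by 1.44 (SE 0.116, limma adjusted p = 0.0109), CITED2, a coregulator, by 0.92 (SE 0.0990, limma adjusted p = 0.0129) and BTG2, which restrains proliferation, by 0.70 (SE 0.0902, limma adjusted p = 0.0144). BHLHE40, a repressor of the clock, fell by 1.72 (SE 0.241, limma adjusted p = 0.0154). CTGF had a ratio of proximal over distal of 1.01 in F1 (0.980 to 1.04) and 0.840 in F5 (0.786 to 0.899).

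**Figure D4:**
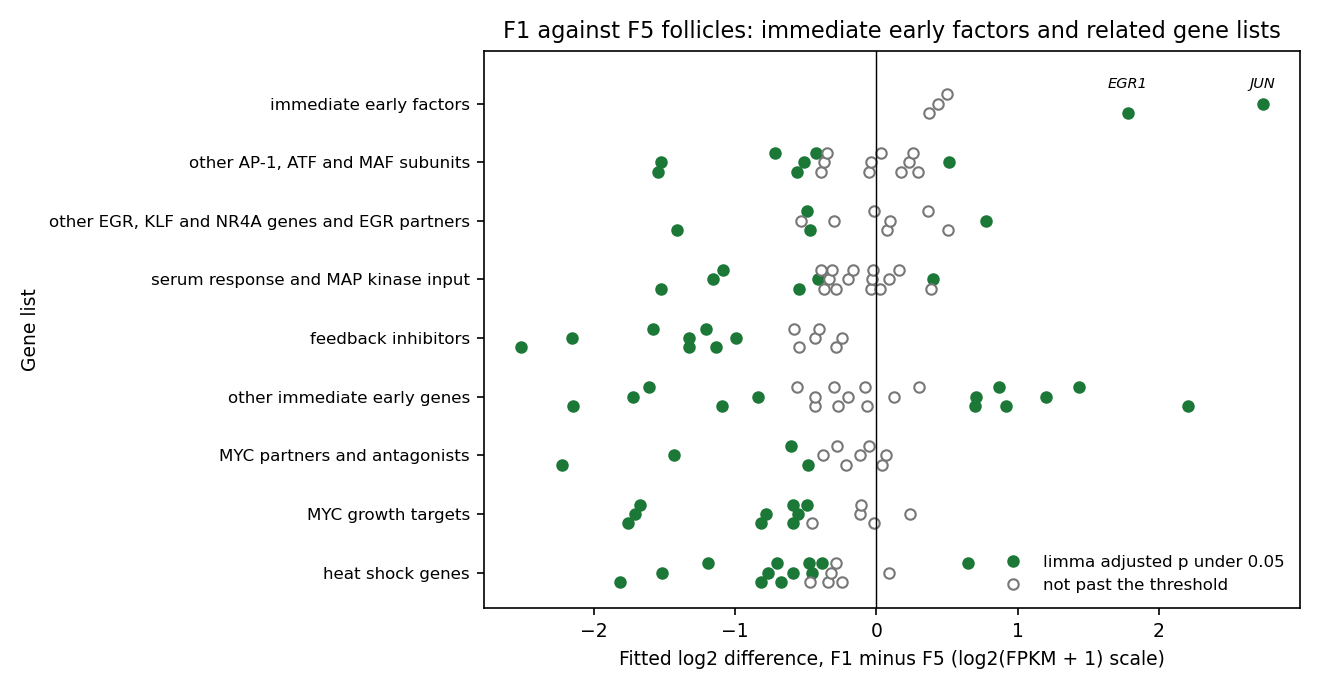
Fitted log2 difference of F1 over F5 follicles on the log2(FPKM + 1) scale for each tested gene of the immediate early factors and of related gene lists. Filled points passed a limma adjusted p of 0.05 over all genes tested. The members lie above 0, with JUN at 2.73 and EGR1 at 1.78, and all 14 feedback inhibitors lie below 0.

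By position, some of these genes differed more than any member did. PLK3, a stress-responsive kinase, stood at 19.3 FPKM (proximal) and 1.94 FPKM (distal) in F1, against 18.1 FPKM (proximal) and 2.43 FPKM (distal) in F5, 9.94-fold (7.76 to 12.9) and 7.45-fold (6.07 to 9.22) higher in proximal cells. DUSP4, a MAP kinase phosphatase, was 3.94-fold higher in proximal cells of F1 (2.50 to 6.45) and 2.97-fold higher in F5 (2.12 to 4.23). ID1, which blocks helix-loop-helix factors, was 3.52-fold (3.17 to 3.91) and 5.54-fold higher (5.04 to 6.10). None of these passed the limma fit of position, with adjusted p of 0.0832 for PLK3, 0.120 for DUSP4 and 0.106 for ID1.

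Markers of other cells were looked at beside these results. Oocyte markers, of which 8 of 13 could be used, summed to 27.0 FPKM in F1 proximal, 2.24 FPKM in F1 distal, 61.8 FPKM in F5 proximal and 15.5 FPKM in F5 distal cells, so they moved with position. The number of these 8 at 0 was 0 in F1 proximal, 4 in F1 distal, 1 in F5 proximal and 2 in F5 distal cells. BUB1B was the highest gene of both distal sums, at 1.89 FPKM in F1 and 12.1 FPKM in F5. Both distal sums were thus mostly BUB1B and say little about the other oocyte markers. ZP2, the highest gene of both proximal sums, stood at 8.62 FPKM (proximal) and 0.224 FPKM (distal) in F1. In F5 ZP2 stood at 28.8 FPKM (proximal) and 2.68 FPKM (distal). Endothelial markers, 11 of 12, summed to 178 FPKM (proximal) and 161 FPKM (distal) in F1, against 104 FPKM (proximal) and 66.2 FPKM (distal) in F5. CLDN5 made up most of the F1 sums. EGFL7 stood at 44.5 to 51.2 FPKM over the 4 libraries, and TIE1 and PECAM1 at 3.04 to 5.31 FPKM. EMCN stood at 3.67 FPKM (proximal) and 0.116 FPKM (distal) in F1, against 10.6 FPKM (proximal) and 0.986 FPKM (distal) in F5. VWF and ESAM were at 0 in both F1 libraries. Leukocyte markers, 12 of 14, summed to 0.691 to 2.93 FPKM, with CD14, CD4, IL7R, SPI1 and TLR4 at 0 in every library. Theca and stroma markers, 11 of 14, summed to 8.68 to 21.5 FPKM, with LUM at 0 in every library and COL1A2 the highest, at 6.55 to 11.8 FPKM. MYH11 stood at 0.763 FPKM (proximal) and 0.690 FPKM (distal) in F1, against 4.81 FPKM (proximal) and 4.03 FPKM (distal) in F5. CYP17A1 stood at 0.135 FPKM (proximal) and 0.305 FPKM (distal) in F1, against 2.59 FPKM (proximal) and 2.17 FPKM (distal) in F5. Of erythrocyte and thrombocyte markers, 3 of 14 could be used, and they summed to 0.258 FPKM at most, with GP9 and HBE at 0 in every library. Of heat shock genes, which also respond to handling, 1 of 18 tested rose in F1, 11 fell and 6 did not pass, beside 10.4% of all tested genes that rose and 35.8% that fell. Under median-ratio scaling 2 rose and 5 fell, beside 2169 and 1896 of the 11203 genes. Without the F5 distal library fewer genes were called over all tested genes, and fewer of these heat shock genes. Their summed level was 2107 FPKM (proximal) and 2086 FPKM (distal) in F1, against 3220 FPKM (proximal) and 3581 FPKM (distal) in F5. HSPA5 was the highest gene of this sum in every library. HSPA8 and SERPINH1 stood at 174 to 568 FPKM, far above HSP70, so the sum says little about HSP70. HSP70 stood at 11.8 FPKM (proximal) and 7.04 FPKM (distal) in F1, against 31.6 FPKM (proximal) and 37.9 FPKM (distal) in F5. Its fitted differences of F1 over F5 ran from -2.15 to -1.45 over the 14 settings. The part of other cell types and of handling in the JUN and EGR1 results was not tested.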

How the data were processed

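Poly-A selected RNA of 4 libraries was sequenced, 1 for each position and follicle. The authors computed FPKM, the unit of the deposited levels. TopHat2 2.0.12 and HTSeq 0.6.1 are named in the submitters' processing notes, and no source used here names the build. The deposited tables also hold the authors' log2 fold changes of proximal over distal cells. Another 2 rows without values were left out of 19311. The length column is not always the length behind FPKM: for JUN both are 945 bases, for FOS they are 606 and 1077.

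Whole reads were recovered from FPKM. Within a gene, FPKM ratios between libraries fitted whole numbers for 16894 of 16894 genes above 0 (tolerance 1e-06), and reads were raised by the smallest factor that made the implied length whole, which it did for 16888. A remaining common factor would understate reads and widen intervals. Recovered reads were 97.3% to 97.9% of the library totals.

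Tests were additive limma 3.58.1 fits in R 4.3.3 (moderated with a trend, two-sided, Benjamini-Hochberg over the 11203 genes averaging 1 FPKM or more, threshold 0.05), on log2(FPKM + 1) with a pseudocount of 1. Pairs of libraries have no test and follow a size rule of 2-fold. The additive fit and the recovery of reads were tested on simulated data. There the fit made a larger share of false calls than its threshold allows, so its adjusted p-values may be too small. Alternatives were other pseudocounts, filters and scalings, no trend, no position term, each library left out, and limma with voom weights on recovered reads. Members, lists and tests were chosen with earlier results of these data known. Apart from the members, genes were named from each list by a rule: those called and averaging 5 FPKM or more (the 3 highest and 3 lowest where more than 6), and in each proximal-distal pair the 2 highest and 2 lowest beyond 2-fold, and the 3 genes nearest in profile to JUN, FOS, EGR1 and MYC. Some genes that this rule names are not reported here. A list gene was usable where its name occurred once and its chromosome was not contradicted by the RefSeq table of assembly GRCg7b.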

Additional observations from a re-analysis of the deposited data

Results flagged for a closer look

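A direction that turned between follicles or positions, with both counting intervals off 1, was seen for 8 of the 50 genes examined, none of them a member. These 50 were the members found and the list genes that the naming rule picked. The share over all tested genes was not computed, so 8 of 50 cannot be read as many or few. Counting intervals are narrow for genes with many reads. With 1 library per group none of the turned directions was tested. TRIB2 had a ratio of proximal over distal of 2.19 in F1 and 0.888 in F5, HSP70 of 1.68 and 0.835, LDHA of 1.48 and 0.780, and KLF3 of 1.45 and 0.884. The ratios of these 4 kept opposite directions under median-ratio and common-total scaling. For KLF3 the F1 ratio came to 1.20 under median-ratio scaling, and its interval, moved by the same factor, then reaches across 1. ATF4 (1.08 in F1 and 0.878 in F5), RPS6KA3 (1.18 and 0.910) and SERPINH1 (1.21 and 0.934) did not, as their F1 ratios came to 0.890, 0.975 and 0.996 under median-ratio scaling. MYCL had a ratio of F1 over F5 of 0.891 in proximal and 1.19 in distal cells, which came to 1.10 and 1.65 under median-ratio scaling.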

How the results depend on the processing

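JUN was called higher in F1 under all 14 settings of the fit, with differences of 2.39 to 3.12 and limma adjusted p up to 0.0219, and EGR1 under 12 of 13. The call of EGR1 was lost with the F5 distal library left out (1.55, adjusted p = 0.0885), and the cause was not tested. FOS and MYC were called under median-ratio scaling alone, and FOSL2 also with a pseudocount of 5 (adjusted p = 0.0333) and with a mean of at least 5 FPKM (adjusted p = 0.0449). Fits that left out 1 library had no position term and called 666 to 4978 genes between follicles, against 5178 with all 4. They were 666 without F5 distal, 971 without F5 proximal and 1982 without F1 distal cells. The fit of position called 159 genes with a pseudocount of 5 and 51 with a common FPKM total, against 0, and no member under any setting. By the size rule EGR1 alone was 2-fold higher in proximal cells of F5 at a pseudocount of 0.1, which makes 1 member. With a pseudocount of 5 JUN alone was 2-fold higher in F1, 1 member at each position. Position differences are taken within follicles by the follicle term of the fit. No further paired analysis was possible because each group has 1 library and the labels give no replicate numbers. Few reads limit ATF3 and KLF4, and the F5 values of EGR1 rest on 41 and 19 reads.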

Other observations

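MYC itself did not pass the test between follicles, and genes around it were counted beside all tested genes, of which 10.4% rose and 35.8% fell in F1. Under median-ratio scaling 2169 of the 11203 genes rose and 1896 fell. Of 14 tested MYC growth targets 0 rose, 9 fell and 5 did not pass, with a median of -0.57 on the log2(FPKM + 1) scale, and under median-ratio scaling 1 rose and 4 fell. RRP9, which takes part in ribosome production, stood at 9.32 FPKM (proximal) and 9.08 FPKM (distal) in F1, against 36.0 FPKM (proximal) and 31.3 FPKM (distal) in F5, and fell by 1.76 (SE 0.116, limma adjusted p = 0.00951). LDHA, a lactate dehydrogenase subunit, fell by 1.71 (SE 0.242, limma adjusted p = 0.0156), and TFRC, the transferrin receptor, fell by 1.67 (SE 0.207, limma adjusted p = 0.0140). Of 11 tested partners and antagonists of MYC 0 rose and 4 fell, a share close to that of all tested genes, and 2 fell under median-ratio scaling. Without the F5 distal library fewer genes of both lists were called, as over all tested genes. MXD3, an antagonist, stood at 4.61 FPKM (proximal) and 0.784 FPKM (distal) in F1, against 16.01 FPKM (proximal) and 11.8 FPKM (distal) in F5, and fell by 2.22 (SE 0.340, limma adjusted p = 0.0172). MYCL, a relative of MYC, was 2.16-fold higher in proximal cells of F1 (1.93 to 2.41) and 2.89-fold higher in F5 (2.59 to 3.22), with a limma adjusted p of 0.139 for position.

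Of single heat shock genes, HSPH1 fell in F1 by 1.19 (SE 0.120, limma adjusted p = 0.0126) and SERPINH1, a collagen chaperone, fell by 1.52 (SE 0.127, limma adjusted p = 0.0109). HSPA8 fell by 0.46 (SE 0.101, limma adjusted p = 0.0322). It was not called under median-ratio scaling. DUSP1, a phosphatase of stress kinases that was chosen here after its values were seen, stood at 3.63 FPKM (proximal) and 0.495 FPKM (distal) in F1, against 9.52 FPKM (proximal) and 4.89 FPKM (distal) in F5 (limma adjusted p = 0.0178). It was called in 9 of 13 settings, with differences of -2.40 to -0.76 and limma adjusted p up to 0.315. The call was lost with no position term and without the F1 distal, F5 proximal or F5 distal library.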
